A study of Mus musculus with 6 samples.

Results

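The genes described here are the integrin and laminin subunits, taken as every row of the count tables whose symbol starts with Itga, Itgb or Lama, Lamb or Lamc followed by its chain number or letter. That rule found 37 of 24422 genes, of which 26 were integrin subunits and 11 were laminin chains. RNA was sequenced from whole kidneys of C57BL/6 mice at postnatal day 60, all fed an iron sufficient diet with 220 ppm iron. The 3 control mice are labelled wild type. The 3 knockout mice are labelled Tfr1f/f;KspCre, meaning that both copies of the transferrin receptor gene Tfrc carried loxP sites around exons of its transmembrane part. Their Cre recombinase was driven by the promoter of Ksp-cadherin (Cdh16), which is active in the distal nephron and collecting duct, so other cells of the same kidneys kept the floxed gene. The comparison asked how transcripts of the kidney differed once these segments had lost the receptor through which cells take up transferrin-bound iron.

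Integrins are receptors made of 1 alpha and 1 beta chain that hold cells to the matrix around them or to other cells. Laminins are trimers of 1 alpha, 1 beta and 1 gamma chain, and together with type IV collagen they form the basement membrane on which the epithelium of every nephron segment rests. Integrins with the chains Itga3 or Itga6 bind laminins, those with Itga5, Itga8 or Itgav read the short RGD peptide of fibronectin and related proteins, and those with Itgb2 or Itgb7 belong to leukocytes. Itgav paired with Itgb6 or Itgb8 also releases active transforming growth factor beta (TGF-beta) from its latent form.

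The libraries held 11501053 to 21001341 gene counts, and the members took 0.197% to 0.248% of these in the controls against 0.309% to 0.458% in the knockouts. Levels are given as CPM, counts scaled to a library of 1000000 after TMM scaling, with the mean ± SD of 3 libraries where a single value stands for a group. The check on the targeted gene did not separate the groups. Tfrc had 2783, 2856 and 1032 counts in controls 1, 2 and 3 and 4368, 1713 and 530 in the libraries labelled knockout 1, 2 and 3, so knockout 1 lay above every control. The counts cover the whole gene and all cells of the kidney, so exons that were not floxed and cells outside the Cre domain count too. All libraries are called by their labels below. Control 2 stood apart from the other libraries of the series in sex-linked transcripts, with 52 Xist counts against 10458 to 23845 elsewhere and 3980 counts of 4 Y-linked genes against at most 5. Kidney markers were present in all libraries, and the summed level of 8 proximal tubule genes, 6 of them called lower, was 12889 to 18016 CPM in the controls and 2026 to 6873 CPM in the knockouts. In RNA from a whole organ, fewer cells of a type and less RNA per cell cannot be told apart.

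Of the 37 members, 36 reached 10 counts in at least 3 libraries and were tested. By edgeR's quasi-likelihood test at an adjusted p under 0.05, 13 of these were higher in the knockouts, 0 were lower and 23 were not called. Among all 15171 genes tested, 17.2% were called, 10.6% as higher and 6.64% as lower. The median log2 fold change of the tested members was 0.93, beside 0.02 for all genes tested. At an unadjusted p under 0.05 there were 22 members higher and 4 lower, where 38.6% of all genes passed. The 4 members lower by that measure were Itgb8, Itgb6, Lama1 and the platelet chain Itga2b. The DESeq2 Wald test called 20 members higher and the same 4 lower against a background of 28.5%, and limma-voom called 7 higher and 0 lower against 13.4%. Every knockout library lay above every control library for 20 members and below for 3, where such separation was found in 23.8% and 22.2% of all genes. Beyond the members called by edgeR, DESeq2 called Itga6, Itga7, Itga10, Itgav, Itgb3, Lamb2 and Lamc1 higher. The edgeR calls depended on the full set of libraries. With any single control left out, edgeR called 0 members and 0 genes, although 17 to 21 members kept an unadjusted p under 0.05. Leaving out knockout 2 left 1 member called and leaving out knockout 3 left 0, with 20 members at an unadjusted p under 0.05 in the latter. Without knockout 1 the number rose to 25 members, against 34.4% of all genes. The log2 fold changes themselves were above 0 for each of the 13 called members in all 16 refits.

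**Figure D1:**
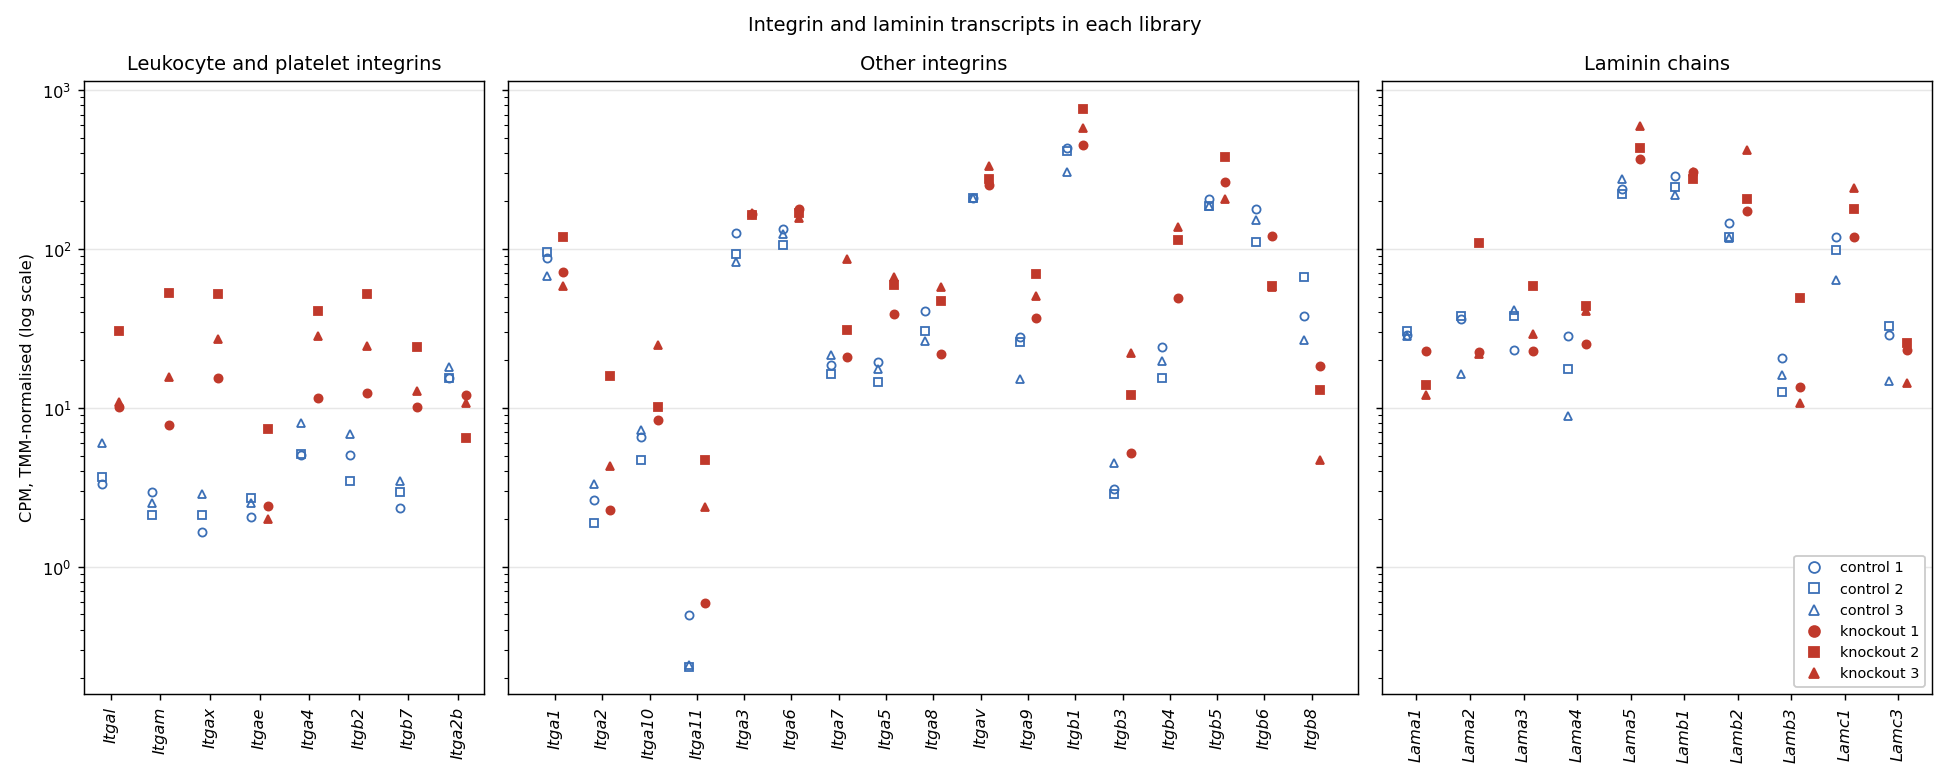
Level of tested integrin and laminin transcripts in each of the 6 libraries, in TMM-normalised CPM on a log axis, with open blue symbols for controls and filled red symbols for knockouts. Itgax lay at 1.64 to 2.88 CPM in the controls and at 15.4 to 52.0 CPM in the knockouts, while Itgb8 lay at 26.6 to 66.5 CPM against 4.67 to 18.3 CPM, and the symbols of knockouts 2 and 3 coincide for Itgb6.

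Itgax and Itgam, both integrins of leukocytes, had the largest rises of all members. Of 8 leukocyte chains, 7 were tested and 6 were higher in the knockouts, beside 10.6% of all genes. By limma-voom Itgax and Itgb7 kept the call, and Itgam, Itgal, Itgb2 and Itga4 lost it. The summed level of the 8 chains went from 22.3, 22.1 and 32.7 CPM in the controls to 69.9, 260.0 and 121 CPM in the knockouts. Knockout 2 held the highest value of all 7 chains.

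The promoters of 4 called leukocyte chains are shown because these genes rose together, along with those of Itga5, a fibronectin receptor chain, and Lama5, a laminin chain, which also rose. Each runs from 250 bases before to 50 bases after the RefSeq start site in build GRCm38.p6, read 5′ to 3′ on the strand of the gene. Capitals mark 3 short motifs found on either strand, namely TGANTCA (AP-1), GAGGAA (the core that PU.1 and other ETS factors read) and GGGCGG (the Sp1 type GC box), and no marked matches overlap. Itgam is at chr7:128062390-128062689 and Itgax at chr7:128129300-128129599, both on the plus strand. Itgb7 is at chr15:102231886-102232185 on the minus strand and Itga4 at chr2:79255176-79255475 on the plus strand. Itga5 is at chr15:103366742-103367041 and Lama5 at chr2:180225810-180226109, both on the minus strand.
Itgam: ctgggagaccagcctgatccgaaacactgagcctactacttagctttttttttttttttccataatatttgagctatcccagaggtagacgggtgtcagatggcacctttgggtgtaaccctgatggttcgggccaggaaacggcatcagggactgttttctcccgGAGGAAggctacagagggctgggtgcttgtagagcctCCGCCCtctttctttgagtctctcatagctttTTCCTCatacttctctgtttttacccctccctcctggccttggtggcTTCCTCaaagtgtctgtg
Itgax: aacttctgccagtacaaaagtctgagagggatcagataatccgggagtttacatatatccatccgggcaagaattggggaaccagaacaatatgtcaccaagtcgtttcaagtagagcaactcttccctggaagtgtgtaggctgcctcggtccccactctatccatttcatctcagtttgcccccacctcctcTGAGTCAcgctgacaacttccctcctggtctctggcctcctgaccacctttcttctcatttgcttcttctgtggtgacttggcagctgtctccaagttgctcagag
Itgb7: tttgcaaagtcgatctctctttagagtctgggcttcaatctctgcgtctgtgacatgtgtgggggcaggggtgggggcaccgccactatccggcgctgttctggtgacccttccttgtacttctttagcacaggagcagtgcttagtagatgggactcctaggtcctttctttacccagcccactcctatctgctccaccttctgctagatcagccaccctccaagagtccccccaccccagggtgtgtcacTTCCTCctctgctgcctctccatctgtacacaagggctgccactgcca
Itga4: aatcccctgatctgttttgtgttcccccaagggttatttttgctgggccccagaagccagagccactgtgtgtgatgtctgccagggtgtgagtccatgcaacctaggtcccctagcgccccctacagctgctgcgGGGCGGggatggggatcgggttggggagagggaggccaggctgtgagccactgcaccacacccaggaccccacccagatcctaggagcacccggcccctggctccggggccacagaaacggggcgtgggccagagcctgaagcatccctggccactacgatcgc
Itga5: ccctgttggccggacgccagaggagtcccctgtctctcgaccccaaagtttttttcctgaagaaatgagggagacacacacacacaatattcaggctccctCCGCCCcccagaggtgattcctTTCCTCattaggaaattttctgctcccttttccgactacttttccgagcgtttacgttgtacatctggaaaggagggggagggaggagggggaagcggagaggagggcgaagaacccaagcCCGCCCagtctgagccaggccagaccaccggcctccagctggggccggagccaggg
Lama5: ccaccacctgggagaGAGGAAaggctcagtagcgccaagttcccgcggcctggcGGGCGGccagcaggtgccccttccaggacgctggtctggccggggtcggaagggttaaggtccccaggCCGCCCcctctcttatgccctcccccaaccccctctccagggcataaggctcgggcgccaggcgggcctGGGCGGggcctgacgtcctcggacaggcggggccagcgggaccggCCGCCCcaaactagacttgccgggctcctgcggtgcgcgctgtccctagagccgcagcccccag

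Itgam held GAGGAA 3 times, first bases at -84, -15 and 33 from the start, and the GC box once. Itgax held only the AP-1 motif, at -56, and Itgb7 held GAGGAA once. Itga4 held 1 GC box. Itga5 held GAGGAA once, at -127, and 2 GC boxes, and Lama5 held GAGGAA once, at -235, and 4 GC boxes, so that Itgam, Itga5 and Lama5 shared both motifs. RefSeq promoters were matched for 23 of the 37 members, with 26 promoters in all. GAGGAA occurred in 14 of these 26, and in 28.3% of all 32851 mouse promoters of the same length. The GC box was found in 12 of the 26 and in 35.7% of all promoters. The AP-1 motif was in 3 and in 7.81%, and TATAAA in 0 and in 13.6%. A match describes these letters and is no evidence that a factor binds there.

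Itgax (CD11c), the alpha chain found on dendritic cells and many tissue macrophages, had the largest change of all members. Its level was 1.64, 2.12 and 2.88 CPM in the controls and 15.4, 52.0 and 27.2 CPM in the knockouts, a log2 fold change of 3.83 (SE 0.504, adjusted p = 0.0271). Every knockout stood at more than the sum of the 3 control values. Its neighbour Itgam (CD11b), the alpha chain of the complement receptor of monocytes, macrophages and neutrophils, had 2.94, 2.12 and 2.52 CPM in the controls and 7.80, 52.7 and 15.6 CPM in the knockouts. The groups did not overlap, but knockout 2 stood far above the other knockouts. The log2 fold change of Itgam was 3.32 (SE 0.714, adjusted p = 0.0327), and it was 2.20 without knockout 2. In the mm9 assembly both genes lie on the plus strand of chromosome 7, Itgam at 135206154 to 135271674 and Itgax at 135273061 to 135294171, with 1386 bases between them. Itgad follows Itgax after 3718 bases on the same strand, and had 0, 0 and 7 counts in the controls and 8, 7 and 1 in the knockouts, too few to be tested. Itgal, further upstream on chromosome 7 with 46 annotated genes between it and Itgam, encodes the alpha chain of LFA-1, the receptor with which lymphocytes hold to ICAM proteins. It had 3.33, 3.64 and 6.00 CPM in the controls and 10.1, 30.6 and 10.8 CPM in the knockouts, so that its knockouts 1 and 3 were alike and knockout 2 was high. Itgal had a log2 fold change of 1.99 (SE 0.510, adjusted p = 0.0435), and of 1.27 without knockout 2.

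Itgb2 (CD18) is the common beta chain with which Itgal, Itgam, Itgax and Itgad pair. It had 5.03, 3.47 and 6.84 CPM in the controls and 12.3, 52.0 and 24.5 CPM in the knockouts, with no overlap, and a log2 fold change of 2.53 (SE 0.549, adjusted p = 0.0332), or 1.84 without knockout 2. The partners did not rise in proportion. Counts of Itgax were 0.327, 0.610 and 0.421 of those of Itgb2 in the controls and 1.25, 1.00 and 1.11 of them in the knockouts, and the ratio of Itgam to Itgb2 also had no overlap, at 0.368 to 0.610 against 0.633 to 1.01. For Itgal the ratio overlapped, at 0.663 to 1.05 in the controls and 0.441 to 0.817 in the knockouts. These ratios are descriptions and were not tested.

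Itgb7 pairs with Itga4 on lymphocytes that home to mucosa, and with Itgae on lymphocytes that sit within epithelium. Itgb7 had 2.34, 2.94 and 3.48 CPM in the controls and 10.1, 24.2 and 12.8 CPM in the knockouts, and its lowest knockout was above the highest control by more than the spread of the controls. This gave Itgb7 a log2 fold change of 2.43 (SE 0.392, adjusted p = 0.0277). Itga4, which also pairs with Itgb1 as the VCAM-1 receptor VLA-4, had 5.03, 5.11 and 7.98 CPM in the controls and 11.5, 40.7 and 28.4 CPM in the knockouts. These groups did not overlap either, and the log2 fold change was 2.15 (SE 0.471, adjusted p = 0.0333). Part of the exon length of Itga4, 8.04%, is shared with Cerkl on the opposite strand, whose reads cannot be told apart unless counting used strand. Itgae (CD103), the alpha chain that binds E-cadherin (Cdh1), was the exception among the tested leukocyte chains. It had 2.04, 2.70 and 2.52 CPM in the controls and 2.40, 7.38 and 1.99 CPM in the knockouts, with a log2 fold change of 0.70 (SE 0.539, adjusted p = 0.367). Only knockout 2 was outside the range of the controls on the high side, and without it the log2 fold change of Itgae was -0.13. Against Itgb7, Itgae went from 0.872, 0.920 and 0.724 in the controls to 0.239, 0.304 and 0.156 in the knockouts.

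The leukocyte markers moved with these integrins. Of 17 marker genes with counts, 16 were tested and 10 were higher in the knockouts, among them Ptprc (CD45), Adgre1, Laptm5 and Cd3e, while the neutrophil marker Ly6g was at or near 0 in every library. Their summed level was 167 to 179 CPM in the controls and 349 to 900.2 CPM in the knockouts, with knockout 2 the highest. Csf1r, which was not called, made up most of that sum in the controls, at 94.0 to 117 CPM. The leukocyte integrins were 0.124 to 0.186 of the marker sum in the controls and 0.200 to 0.315 of it in the knockouts, while gene by gene the median log2 fold change was 2.60 for the tested markers and 2.43 for the tested integrins of leukocytes. They made up 1.40%, 1.55% and 2.47% of all integrin CPM in the controls and 3.92%, 10.1% and 5.66% in the knockouts. The part of the marker level in these rises was not tested. Among ligands of these receptors, Vcam1 and Icam1 were higher and Cdh1 was not called, as described below.

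Itga2b, the platelet alpha chain that pairs with Itgb3 as the fibrinogen receptor, was not called by edgeR. It had 15.4, 15.3 and 18.1 CPM in the controls and 12.0, 6.47 and 10.6 CPM in the knockouts, all below the controls. Its log2 fold change of -0.75 (SE 0.265) missed the threshold, at an adjusted p of 0.0876. Of 8 other platelet genes 1 was at 0 in all libraries, and their sum was 2.59 to 5.04 CPM in the controls and 2.70 to 13.2 CPM in the knockouts. Itga2b was above the sum of these platelet genes in every library except knockout 2, where it was 0.489 of it.

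**Figure D2:**
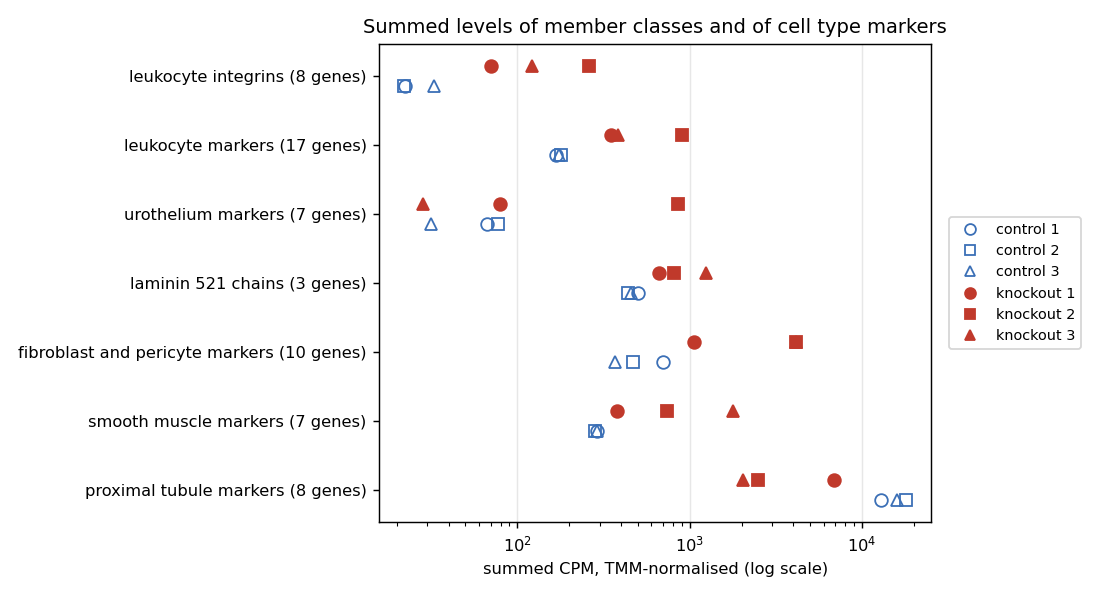
Summed TMM-normalised CPM on a log axis, 1 symbol per library, for classes of members and for lists of cell type markers (open blue, controls, and filled red, knockouts). Knockout 2 has the highest leukocyte integrin sum, 260.0 CPM, the highest leukocyte marker sum, 900.2 CPM, and the highest urothelium marker sum, 861 CPM, and the symbols of knockouts 2 and 3 coincide for fibroblast and pericyte markers.

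Outside leukocytes and platelets 17 integrin chains were tested, of which 5 were higher and 0 lower by edgeR, beside 10.6% and 6.64% of all genes. An unadjusted p under 0.05 was found for 13 of them and for 38.6% of all genes. Their summed level went from 1269 to 1555 CPM in the controls to 1702 to 2295 CPM in the knockouts, a ratio of means of 1.43 beside 5.85 for the leukocyte chains. Per kilobase of merged exon length in the mm9 annotation, Itgb1 was the most abundant member in both groups, at 93.8 CPM per kb in the controls and 146 in the knockouts. Itgb5 was next at 57.2 and 83.8 CPM per kb. Then came Lamb1, Lamb2, Lama5, Itgb6 and Itgav at 19.4 to 25.2 CPM per kb in the controls, which were close to each other.

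Itgb1, the beta chain shared by the receptors for laminin, collagen and fibronectin, had 434, 411 and 304 CPM in the controls and 451, 759.6 and 577 CPM in the knockouts. Knockout 1 was just above the highest control. With a log2 fold change of 0.64 (SE 0.261) and an adjusted p of 0.121, Itgb1 was not called. The chains around it differed. Among the laminin-binding alpha chains, Itga3, which podocytes and tubules need to hold to laminin, had 126, 92.4 and 82.4 CPM in the controls and 166, 164 and 169 CPM in the knockouts. Its knockouts were nearly equal and all above the controls, and the log2 fold change was 0.73 (SE 0.185, adjusted p = 0.0427). Itga6, the partner of both Itgb1 and Itgb4, was 122 ± 14.0 CPM in the controls and 167 ± 10.9 CPM in the knockouts (SD, n = 3), with a log2 fold change of 0.45 and an adjusted p of 0.0718. Itga7, a laminin receptor chain of muscle, was 18.7 ± 2.52 CPM in the controls and 45.9 ± 35.0 CPM in the knockouts (SD, n = 3), a spread set by knockout 3 at 85.8 CPM, and it was not called (adjusted p = 0.109). Smooth muscle markers were also highest in knockout 3, at 1780 CPM against 281 to 291 CPM in the controls, and Itga7 was a smaller part of their sum in each knockout than in each control.

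Itgb4 is the beta chain of hemidesmosomes, where with Itga6 it ties keratin filaments to the laminin beneath layered epithelia. Among the called chains outside leukocytes it rose most after Itga11. The levels of Itgb4 were 24.0, 15.4 and 19.6 CPM in the controls and 49.1, 113 and 138 CPM in the knockouts. All knockouts were above the highest control, with knockout 1 the lowest of them. Itgb4 had a log2 fold change of 2.35 (SE 0.392, adjusted p = 0.0278), and 2.25 without knockout 2. The annotation places 7.66% of the exon length of Itgb4 over B230344G16Rik on the opposite strand. Itga6 and Itgb4 came nearer to each other, since Itga6 had 5.59 to 6.91 times the counts of Itgb4 in the controls and 1.13 to 3.61 times in the knockouts. The 7 markers of urothelium, the layered epithelium of the renal pelvis, summed to 66.9, 77.0 and 31.7 CPM in the controls and to 79.8, 861 and 28.2 CPM in the knockouts, and their part in the rise of Itgb4 was not tested. Krt20 was the only one of the 7 called, with 1.99, 3.06 and 0.540 CPM in the controls and 6.28, 12.0 and 7.35 CPM in the knockouts (log2 fold change 2.19, adjusted p = 0.0489).

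The collagen-binding alpha chains were mostly low. Itga11, a chain of fibroblasts and other mesenchymal cells, was called with 10, 4 and 4 counts in the controls and 12, 94 and 31 counts in the knockouts. That is 0.498, 0.235 and 0.240 CPM against 0.589, 4.72 and 2.37 CPM, so knockout 1 was barely above control 1. In edgeR this was a log2 fold change of 2.94 (SE 0.806, adjusted p = 0.0493), or 2.11 without knockout 2. Among the controls only control 1 reached 10 counts, so Itga11 passed the filter through the knockouts, the group where it was high. It had the highest adjusted p of the 13 calls, and Itga11 was not called by limma-voom or by the newer edgeR fit. Fibroblast and pericyte markers summed to 371 to 699 CPM in the controls and 1065 to 4147 CPM in the knockouts, with 4 of 10 called higher. Itga2, of epithelium and platelets, was 2.61 ± 0.711 CPM in the controls and 7.45 ± 7.31 CPM in the knockouts (SD, n = 3) and owed its mean to knockout 2 at 15.8 CPM. Itga1, the most abundant of these chains, had nearly equal means of 83.5 ± 14.9 and 83.1 ± 32.1 CPM in controls and knockouts (SD, n = 3), with a log2 fold change of -0.01 (SE 0.286). Itga10 was 6.18 ± 1.32 against 14.5 ± 9.11 CPM (SD, n = 3, adjusted p = 0.0944), and part of its exon length is not unique to it, which leaves its counts uncertain. The adjusted p of Itga2 was 0.163 and that of Itga1 was 0.988.

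Among the chains that bind the RGD peptide, Itga5, the fibronectin receptor alpha chain whose promoter is printed above, rose most. It had 19.4, 14.5 and 17.5 CPM in the controls and 38.8, 59.2 and 67.0 CPM in the knockouts, and the lowest knockout lay above the highest control by more than the range of the controls. Its log2 fold change came to 1.68 (SE 0.234, adjusted p = 0.0271). Itga5 was called by edgeR, DESeq2 and limma-voom alike. Itgav was very even in the controls, at 209 ± 1.20 CPM, against 286 ± 40.9 CPM in the knockouts (SD, n = 3), with a log2 fold change of 0.46 and an adjusted p of 0.0896. Itga8, a chain of mesangial and interstitial cells, was 32.6 ± 7.41 against 42.0 ± 18.3 CPM (SD, n = 3, adjusted p = 0.485). Opposite-strand genes share 5.90% of the exon length of Itgav and 5.07% of that of Itga8. Itga9, a chain of its own class that binds tenascin and osteopontin, had 27.8, 26.1 and 15.2 CPM in the controls and 36.6, 69.7 and 50.7 CPM in the knockouts. The groups of Itga9 did not overlap, and the log2 fold change was 1.18 (SE 0.310, adjusted p = 0.0451), a call that limma-voom did not make.

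Of the beta chains that pair with Itgav, the main edgeR test called none. Itgb3 was 3.49 ± 0.884 CPM in the controls and 13.1 ± 8.51 CPM in the knockouts (SD, n = 3), a log2 fold change of 1.90 with an adjusted p of 0.0510, and DESeq2 called it higher. The other edgeR fits to all libraries were split on Itgb3. The newer edgeR fit, for example, called it higher (adjusted p = 0.0492), and edgeR with DESeq2 size factors did not (adjusted p = 0.0518). Itgb5 was 192 ± 10.9 against 282 ± 87.1 CPM (SD, n = 3, adjusted p = 0.138). Itgb1, Itgb3 and Itgb5 had higher means in the knockouts, while Itgb6 and Itgb8, named above for the release of active TGF-beta, had lower ones. Itgb8 had 37.6, 66.5 and 26.6 CPM in the controls and 18.3, 12.9 and 4.67 CPM in the knockouts, with every knockout below every control. Its log2 fold change of -1.85 (SE 0.531) was the largest fall among the members and missed the threshold at an adjusted p of 0.0543. Itgb6, the epithelial chain, had 178, 110 and 153 CPM in the controls and 120, 58.0 and 57.5 CPM in the knockouts, where knockout 1 lay above control 2. Its log2 fold change was -0.90 (SE 0.339, adjusted p = 0.0994). DESeq2 called both as lower, as did edgeR without knockout 1, where Itgb8 had a log2 fold change of -2.30 and Itgb6 of -1.36, while limma-voom called neither. Over the libraries left out, Itgb8 ran from -2.30 to -1.43 and Itgb6 from -1.36 to -0.72. Against Itgb1 within each library, Itgb6 went from 0.410, 0.267 and 0.503 in the controls to 0.267, 0.0764 and 0.0996 in the knockouts, so that knockout 1 and control 2 had nearly the same ratio. Itgb8 went from 0.0867, 0.162 and 0.0876 of Itgb1 to 0.0406, 0.0170 and 0.00810. Tgfb1 itself rose, from 15.5 ± 3.45 to 36.3 ± 5.51 CPM (SD, n = 3, log2 fold change 1.23, adjusted p = 0.0286). Thick ascending limb markers, of which 0 of 7 were called by edgeR, summed to 12000, 11768 and 5492 CPM in the controls. In the knockouts they summed to 7067, 947 and 1264 CPM, so the groups overlapped only through knockout 1 and control 3. The ratio of means was 0.317 and the median log2 fold change of these markers was -1.46. Their part in the levels of Itgb6 and Itgb8 was not tested.

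**Figure D3:**
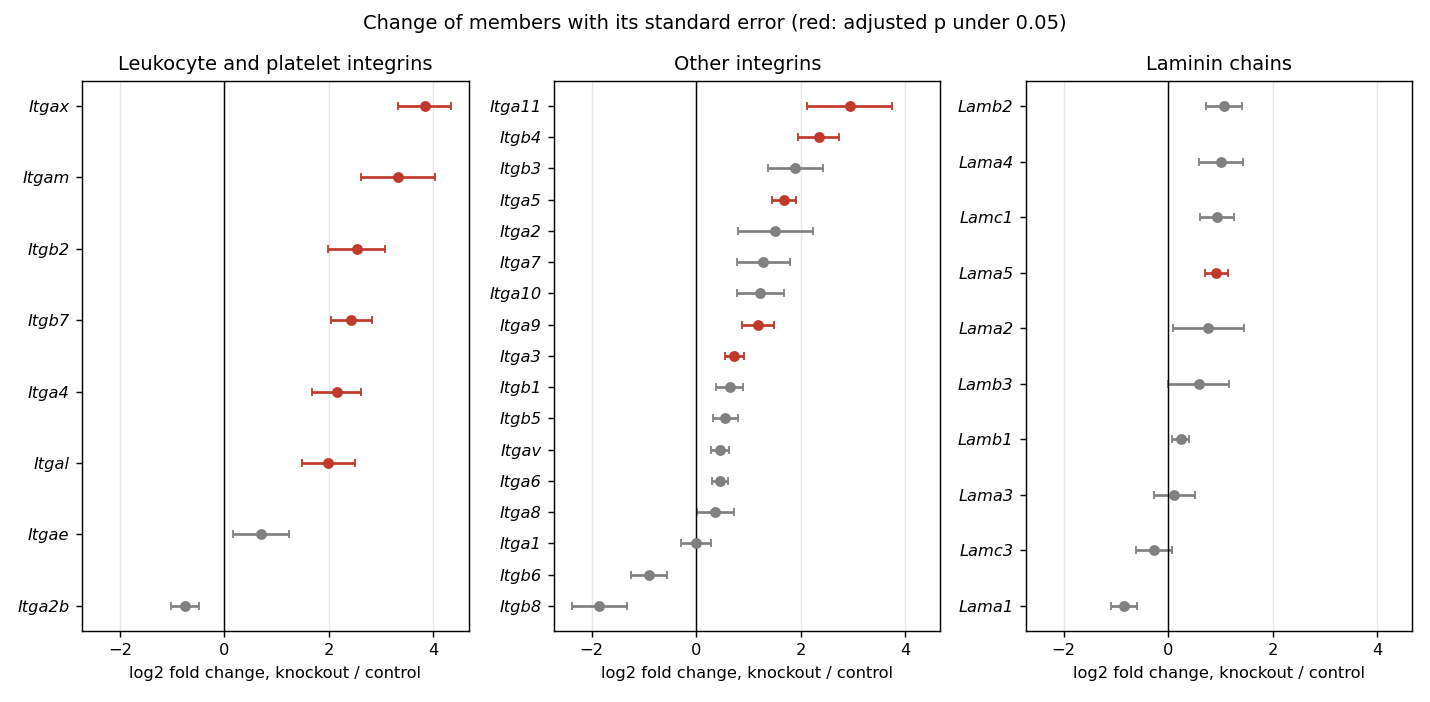
Log2 fold change of knockout over control for tested members with its standard error, from edgeR, in 3 panels sorted by size. Members called higher are red and run from 0.73 for Itga3 to 3.83 for Itgax, and Itgb8 at -1.85 is the lowest of the grey members, which were not called.

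The 11 laminin chains summed to 835 to 999 CPM in the controls and to 1189 to 1849 CPM in the knockouts, a ratio of means of 1.67. Lama3 and Lamb3, an alpha and a beta chain of the laminin beneath layered epithelia, were not called. Lama3 had 22.9, 38.0 and 41.3 CPM in the controls and 22.8, 58.6 and 29.3 CPM in the knockouts (log2 fold change 0.12, SE 0.388, adjusted p = 0.847). Lamb3 had 20.4, 12.6 and 16.0 CPM in the controls and 13.4, 49.1 and 10.6 CPM in the knockouts (log2 fold change 0.58, SE 0.577, adjusted p = 0.487). Both were highest in knockout 2, the library with the high urothelium markers, and without it their log2 fold changes were -0.39 and -0.44.

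Lama5, Lamb2 and Lamc1 form laminin-521, the main laminin of the mature glomerular basement membrane, and Lama5 with Lamc1 serves most tubule basement membranes. Lama5 had 238, 221 and 275 CPM in the controls and 370.1, 430.0 and 591 CPM in the knockouts. It was called with a log2 fold change of 0.92 (SE 0.227, adjusted p = 0.0404) and no overlap of the groups. Lamb2 had 146, 118 and 117 CPM in the controls and 173, 206 and 419 CPM in the knockouts, also without overlap, but knockout 3 was more than the sum of the other knockouts. Its log2 fold change of 1.07 (SE 0.344) had an adjusted p of 0.0700 in edgeR. Lamc1 had 119, 98.8 and 63.4 CPM in the controls and 119, 177 and 240.3 CPM in the knockouts, where knockout 1 lay within the range of the controls (log2 fold change 0.93, SE 0.323, adjusted p = 0.0824). DESeq2 called both Lamb2 and Lamc1 higher. The summed level of these chains was 438 to 502 CPM in the controls and 662 to 1250 CPM in the knockouts. Lamb1, the beta chain of laminin-511 and other forms, was at 250 ± 34.0 and 295 ± 16.3 CPM (SD, n = 3, log2 fold change 0.24, adjusted p = 0.329). Counts of Lamb2 were therefore 0.511, 0.480 and 0.536 of those of Lamb1 in the controls and 0.566, 0.747 and 1.39 of them in the knockouts. Podocyte markers summed to 723, 572 and 595 CPM in the controls and to 1020, 703 and 1018 CPM in the knockouts, with only knockout 2 inside the control range. The ratio of means was 1.45, and 1 of the 7 markers, Synpo, was called higher by edgeR (log2 fold change 1.05, adjusted p = 0.0278). Their part in the laminin levels was not tested.

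Lama1, an alpha chain of early tubule basement membranes, was the laminin chain with the lowest fold change. It was even in the controls, at 28.7, 30.4 and 28.3 CPM, and was at 22.7, 13.8 and 12.1 CPM in the knockouts, all below the controls. Its log2 fold change of -0.84 (SE 0.250) had an adjusted p of 0.0588, and DESeq2 called it. Against Lama5 it went from 0.121, 0.138 and 0.103 to 0.0613, 0.0321 and 0.0205. Lama2, of muscle and interstitium, ranged from 16.4 to 37.8 CPM in the controls and from 21.8 to 109 CPM in the knockouts, and only knockout 2 was above the controls. Without knockout 2 its log2 fold change turned from 0.77 to -0.44. Lama4, of vessels, was 18.2 ± 9.68 against 36.6 ± 9.84 CPM (SD, n = 3, log2 fold change 1.00, adjusted p = 0.127), and the endothelium markers overlapped at 702 to 1262 and 1100 to 1474 CPM. Lamc3 was 25.3 ± 9.35 against 20.9 ± 5.88 CPM (SD, n = 3, log2 fold change -0.28, adjusted p = 0.581), and 6.27% of its exon length is shared with a gene on the opposite strand.

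**Figure D4:**
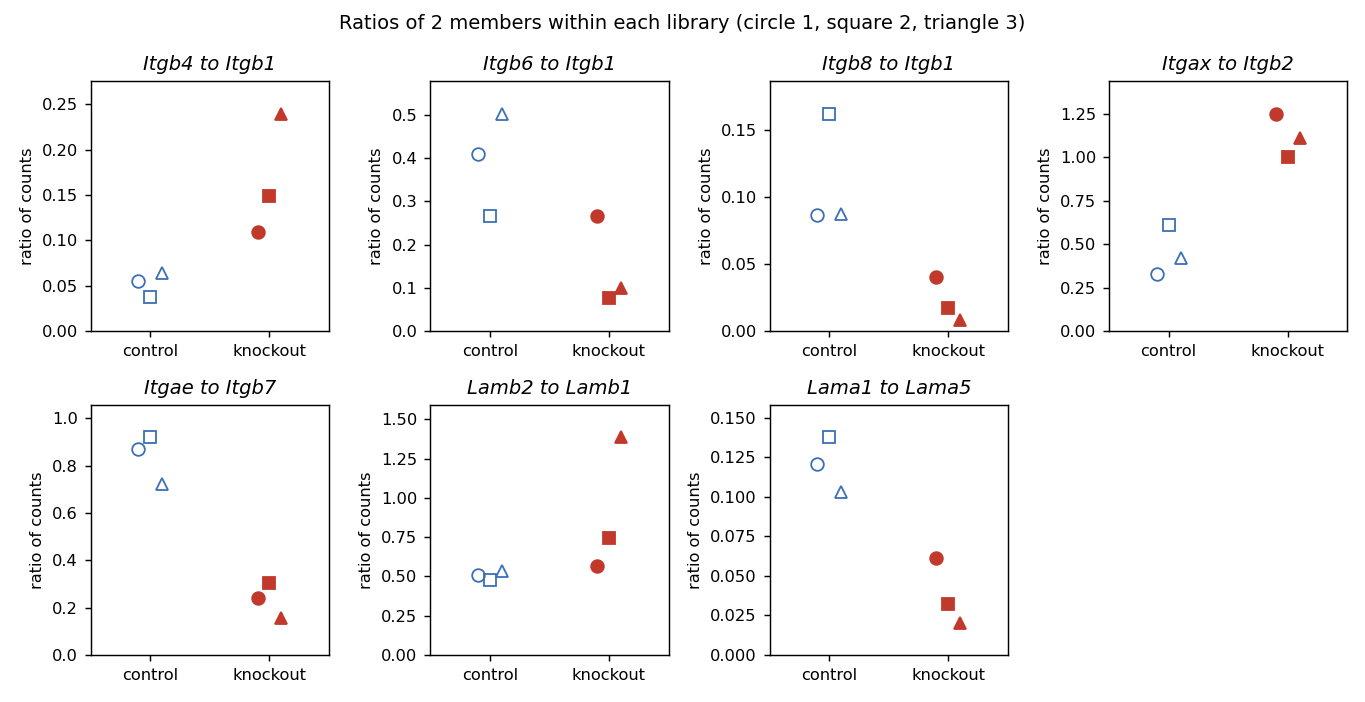
Ratio of the counts of 2 members within each library, controls in open blue and knockouts in filled red, on linear axes from 0. Itgb4 to Itgb1, Itgax to Itgb2 and Lamb2 to Lamb1 are higher in every knockout. Itgb8 to Itgb1, Itgae to Itgb7 and Lama1 to Lama5 are lower, and Itgb6 to Itgb1 is nearly equal in control 2 and knockout 1. The pairs drawn were picked from a longer set. Lama3 to Lama5, Itga4 to Itgb7, Lamb3 to Lamb2, Itga3 to Itga6 and Itgal to Itgb2 overlapped between the groups and are not drawn.

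The partners of these receptors gave counts in both directions. In a list of 25 ligands and basement membrane genes, 7 were higher and 0 lower by edgeR, beside the 10.6% and 6.64% of all genes. Vcam1, the ligand of Itga4, rose from 12.6 ± 1.95 to 155 ± 63.4 CPM (SD, n = 3, log2 fold change 3.62, adjusted p = 0.0271). Icam1, the ligand of Itgal and Itgam, rose from 23.4 ± 6.06 to 72.0 ± 23.4 CPM (SD, n = 3, log2 fold change 1.62). Fn1, the fibronectin that Itga5 binds, rose from 71.4 ± 39.5 to 588 ± 395 CPM (SD, n = 3, log2 fold change 3.04, adjusted p = 0.0326). Col4a1 and Col4a2, the type IV collagen chains of most basement membranes, had log2 fold changes of 1.01 and 1.05, and Tgfb1 was called as given above. Col4a3 and Col4a4, chains of the mature glomerular basement membrane, were not called, with log2 fold changes of -0.97 and -0.91 (adjusted p = 0.0643 and 0.0845). Npnt, the ligand of Itga8 in the kidney, was not called at 358 ± 91.4 and 350.3 ± 55.2 CPM (SD, n = 3), nor was Cdh1, the ligand of Itgae, at 342 ± 56.5 and 379 ± 72.2 CPM.

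Inside the cell, 28 genes of the adhesion complex were tested and 7 were higher and 3 lower, or 25.0% and 10.7% beside 10.6% and 6.64% of all genes. Flna, a filamin that links beta chains to actin, rose with a log2 fold change of 2.17. Parvg and Fermt3, the parvin and kindlin of blood cells, rose by 2.18 and 2.01 on the log2 scale, and the actin crosslinker Actn1 by 1.36. Kank2, which binds talin, rose by 0.97 on the log2 scale, and Tln2, a talin, was lower with a log2 fold change of -1.39 (SE 0.379, adjusted p = 0.0489). Of 15 other laminin receptors and partners, 3 were higher and 1 was lower, or 6.67%, a share near the 6.64% of all genes. Sdc1, a syndecan, rose from 27.5 ± 5.75 to 134 ± 51.4 CPM (SD, n = 3, log2 fold change 2.29, adjusted p = 0.0271). Bcam, a receptor for Lama5, rose with a log2 fold change of 1.24 (adjusted p = 0.0453). Plec, the plectin that binds Itgb4, was higher by 1.34 on the log2 scale, whereas Dst, whose epithelial form is another hemidesmosome linker, was lower with -0.77. Cd151, a tetraspanin that binds Itga3, was not called (log2 fold change 0.53, adjusted p = 0.0648).

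The libraries did not all show the rises to the same degree. Of the 36 tested members, knockout 2 held the highest knockout value for 18, knockout 3 for 12 and knockout 1 for 6. Among the 13 called members these numbers were 8, 5 and 0. Without control 2, the library that stood apart in sex-linked transcripts, the log2 fold changes of the called members ran from 0.67 for Itga3 to 3.79 for Itgax, with adjusted p-values of 0.118 to 0.154. Adding the Xist to Y contrast as a covariate left 0 members called by edgeR, with 19 at an unadjusted p under 0.05. Control 2 alone stood apart in this contrast, so the covariate mostly marks that library and is not a separate check.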

How the data were processed

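Poly-A RNA of 6 kidneys was sequenced by the authors with TruSeq libraries, and reads were processed, per the labels and the study's methods, with CASAVA 1.8.2, Trimmomatic, TopHat2 2.0.11 on mm9 and HTSeq. The authors deposited 1 table of unnormalised counts by gene symbol for each group. The annotation and strand setting are not given in the sources used here. All columns were matched to samples.

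Counts were tested with edgeR 4.0.16 in R 4.3.3 (quasi-likelihood test, TMM scaling, filterByExpr with a minimum count of 10, prior count of 2, no covariates), with Benjamini-Hochberg adjustment across all 15171 tested genes. The labels give 3 biological replicates per group. Alternatives used DESeq2 1.42 and limma 3.58.1 (voom), other scalings and filters, a replicate block, an Xist to Y covariate and each library left out. The code was tested on simulated data. Correlations of same-numbered samples were -0.13, 0.01 and 0.21. They gave no clear sign that the numbers pair the samples, but 3 such values cannot exclude it. No 2 libraries of a group were near-duplicates, since chi-square per degree of freedom was 55.9 to 131.6 between them.

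The rule was to name all 37 members, with values per library for called members, Itgb1, Itgb2, Lama3, Lamb3 and the chains of laminin-521. A member that enters the counts, sums and medians is not reported here. Values per library are given also for Itga2b, Itgae, Itgb6, Itgb8 and Lama1, which were added after their values were seen. From each partner list at most 6 called genes with the largest changes were named, beside a few known ligands and partners. Col4a3 and Col4a4, which were not called, were named too. The members and lists were chosen with earlier results of these data known. Positions and exon lengths are from GENCODE M1 on mm9, where all members matched, and promoters are from RefSeq on GRCm38.p6.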

Additional observations from a re-analysis of the deposited data

How the results depend on the processing

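The edgeR test called 13 members, the same 13 with DESeq2 size factors or a minimum of 10 counts in 3 libraries. Without a filter 13 were called, of which 12 were shared, with Itgb3 in place of Itga3, and likewise 12 of 13 with the newer edgeR fit. These 2 fits called 12.7% and 18.1% of all genes, beside 17.2% in the main test. There were 14 members with upper quartile scaling, where 18.2% of all genes were called, and 18 with library size alone, where 24.0% were. Library size alone shifted the median over all genes from 0.02 to 0.29 (log2) and the share of calls that were higher from 61.4% to 81.8%. The DESeq2 Wald test gave 24 members and 4861 genes against 2612, limma-voom 7 members, and an unadjusted p under 0.05, chosen after seeing the data, 26 members. The replicate block and the Xist to Y covariate each left 0 members and 0 genes, with 22 and 19 members at an unadjusted p under 0.05. Leaving out 1 library gave 0 to 25 members and 0 to 5332 genes, the highest without knockout 1. Whether the replicate numbers pair the samples is not known, so the loss under the replicate block is not read as a weaker or an equal effect. Of the members, 5 changed sign, and none of these was called. Itga1, at -0.01, was 0.073 with upper quartile scaling, 0.27 with library size alone and 0.082 with the covariate, and ran from -0.36 to 0.19 over the libraries left out. Over the same refits Lama3 ran from -0.39 to 0.36, Itgae from -0.13 to 1.01, Lama2 from -0.44 to 1.13 and Lamb3 from -0.44 to 0.94. The cause was not tested. With 3 libraries per group, what could be detected is limited. Itgad had too few counts to be tested, Itga2 owed its mean to knockout 2, and the low counts of Itga11 leave its call fragile.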
